A study of Gallus gallus with 8 samples.

Results

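Insulin-like growth factors (IGFs) are secreted peptides that drive muscle growth through the receptor IGF1R, a tyrosine kinase which acts through the PI3K-AKT-mTOR and RAS-MAPK routes. In tissue and blood they are held by IGF-binding proteins (IGFBPs), which carry the peptides, keep them from the receptor or bring them to the cell surface and the matrix. Proteases that cut the binding proteins set the peptides free. The genes described here were chosen by symbol. Of 8 listed, 6 carried their symbol in the authors' deposited gene table and all 6 passed the filter on low counts: the ligand IGF2, the receptor IGF1R and the binding proteins IGFBP3, IGFBP4, IGFBP5 and IGFBP7. IGF1 and IGFBP2 were not analysed here. The 6 stand among 10136 genes kept for testing, out of 17108 in the count table.

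The samples were pectoralis (breast) muscle of female broilers of the strain Hubbard Flex, chickens bred for meat, all 6 weeks old. They formed 2 groups of 4, one with high and one with low shear force of the muscle, a measure of how tough the meat is. No bird received a treatment that the labels name, and the labels give only each bird's group, not its own shear force. The comparison asks whether messenger RNA levels go with the toughness of the breast meat.

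Total expected counts per bird lay between 5564905 and 7322205. Genes of the contractile fibre were abundant. The 5 of 9 listed fibre markers measured (ACTA1, TNNI2, TNNT3, TNNC2 and PVALB) summed to between 77505 and 112120 CPM, counts scaled to a common library size, in every bird. PVALB had little part in this sum, with means of 9.36 CPM with high and 17.5 CPM with low shear force. On the first principal component low shear force birds 1 and 3 lay apart from the other 6 birds, at 39.0 and 43.9 against -24.4 to -3.27. Results that rest on these 2 birds are given with and without them. The labels number the samples within each group and do not describe them further. P-values therefore measure the spread between these 8 samples.

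IGFBP4, IGFBP5 and IGFBP7 stood higher with high than with low shear force, by 2.26-fold, 2.52-fold and 1.81-fold, whereas IGFBP3, IGF1R and IGF2 differed by 1.01-fold, 1.05-fold and 1.40-fold. None of the 6 reached an adjusted p under 0.05 with edgeR's quasi-likelihood method. By that test 0 of 10136 genes passed (0%), and the smallest adjusted p of any gene was 0.0827. At an unadjusted p under 0.05 the count was 3 of 6, all higher, where 12.8% of all genes tested reached that level, 7.92% being higher and 4.91% lower. With low shear force birds 1 and 3 left out, 1 of 6 remained, IGFBP4, where 787 of 10478 genes tested reached that level. DESeq2 on the same counts called 1 of 6, also IGFBP4, where it called 0.888% of genes as higher.

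**Figure D1:**
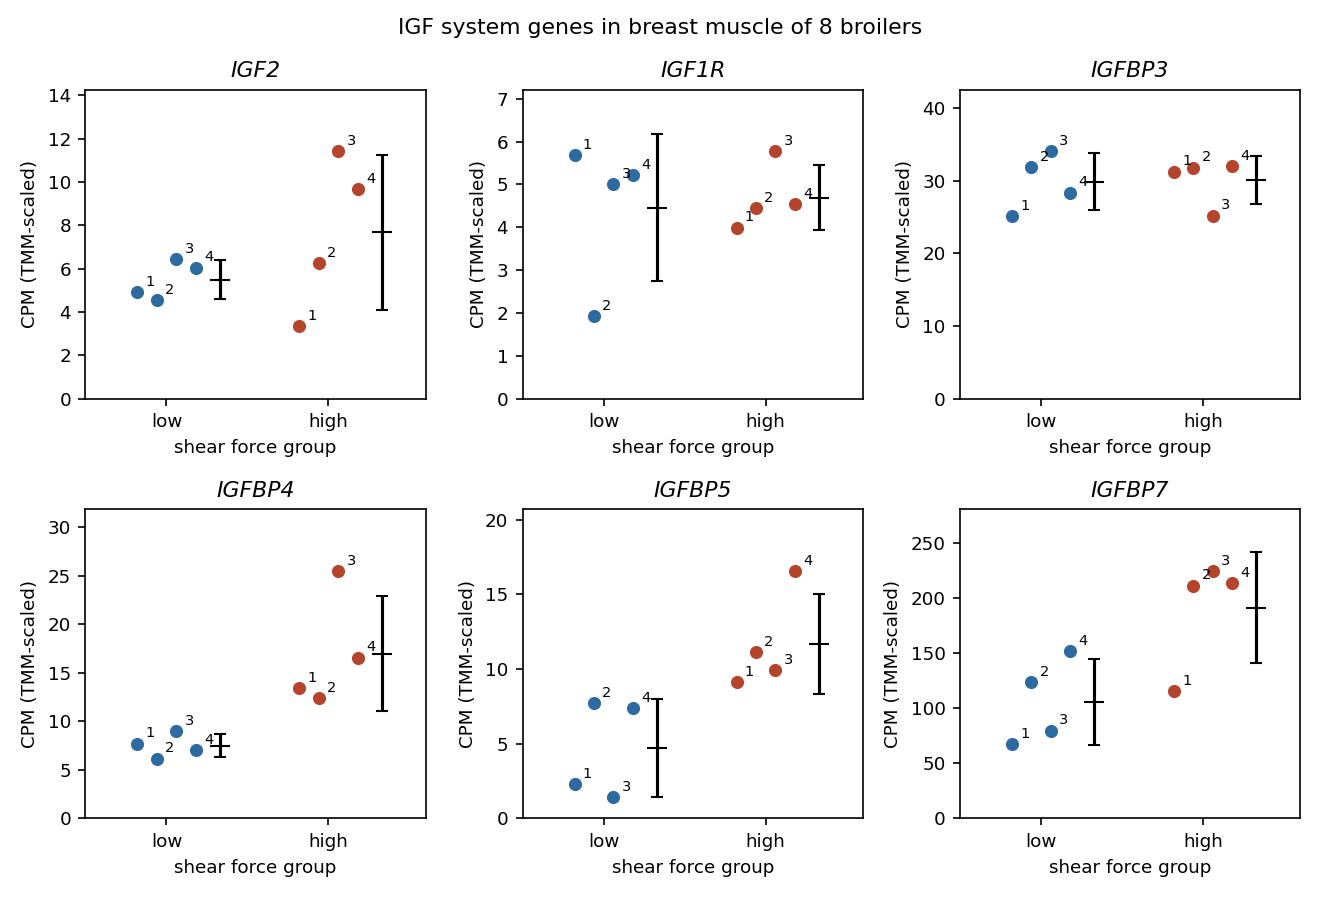
Level of each of the 6 genes in each bird, in CPM scaled by TMM factors (vertical axis), by shear force group. Points are birds with their number, and bars show the mean ± SD of 4 birds. IGFBP4 and IGFBP5 are the genes whose groups do not overlap, and low shear force birds 1 and 3 are the lowest for IGFBP5 and IGFBP7.

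IGF2, the ligand of the group, is a growth factor best known from the embryo that birds go on making after hatching. IGF2 was found at 3.35, 6.26, 11.4 and 9.67 CPM in high shear force birds 1 to 4, and 4.92, 4.56, 6.43 and 6.05 CPM in low shear force birds 1 to 4. The groups overlapped, since high shear force bird 1 was the lowest of all 8 while birds 3 and 4 of that group were the highest. High shear force birds averaged 7.67 ± 3.59 CPM and low shear force birds 5.49 ± 0.891 CPM (SD, n = 4 each). The log2 fold change was 0.49 ± 0.34 (SE), with a 95% interval from -0.26 to 1.23 and an edgeR adjusted p of 0.555. That interval holds folds from 0.838 to 2.34, so a small decrease, no difference and a larger increase could not be told apart at this spread. The value leaned on single birds of the high shear force group: it was 0.22 without bird 3 and 0.73 without bird 1, and at the latter setting the unadjusted p of the edgeR quasi-likelihood test was 0.0214 (adjusted p = 0.271).

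IGF1R, the receptor that passes on the signal of both IGFs, had low counts, between 11 and 46 per bird. IGF1R levels were 3.99, 4.45, 5.77 and 4.54 CPM in high shear force birds 1 to 4, and 5.69, 1.93, 5.01 and 5.21 CPM in low shear force birds 1 to 4. All birds lay close together but low shear force bird 2, which had 11 reads. The group means were 4.69 ± 0.760 CPM with high and 4.46 ± 1.71 CPM with low shear force (SD, n = 4 each). On the log2 scale the difference was 0.07 ± 0.33 (SE; edgeR adjusted p = 0.947). The 95% interval ran from -0.64 to 0.78, and the sign turned when low shear force bird 2 (-0.20) or high shear force bird 3 (-0.053) was left out. Counting alone gives a coefficient of variation of 17.3% at the mean of 33.5 reads of the high shear force birds. Their observed value was 16.2%, so the spread in that group was no larger than counting noise. In the low shear force birds the observed value was 38.3%, against 18.4% from counting at their mean of 29.5 reads.

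IGFBP3, in mammals the main carrier of IGFs in blood, was the steadiest of the 6. Birds had IGFBP3 at 31.3, 31.8, 25.2 and 32.1 CPM in high shear force birds 1 to 4, and 25.2, 31.9, 34.1 and 28.4 CPM in low shear force birds 1 to 4. The groups covered nearly the same range, and the lowest value of one was almost that of the other. The group means were 30.1 ± 3.28 CPM with high and 29.9 ± 3.91 CPM with low shear force (SD, n = 4 each). The log2 fold change was 0.0084 ± 0.15 (SE; edgeR adjusted p = 0.987), and its sign turned under other scalings and with single birds left out. The 95% interval was narrow, from -0.33 to 0.34, which holds folds from 0.798 to 1.27 and so leaves out a difference as large as the 1.81-fold of IGFBP7. The within-group SD of log2 CPM was 0.18 for IGFBP3, against a median of 0.32 over all kept genes.

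IGFBP4 binds both IGFs and is known in mammals for holding them back from the receptor until a protease cuts it. IGFBP4 was measured at 13.4, 12.4, 25.5 and 16.6 CPM in high shear force birds 1 to 4, and 7.68, 6.14, 9.001 and 7.06 CPM in low shear force birds 1 to 4. The groups did not overlap, as was the case for 6.18% of all genes (3.89% with the high shear force birds above), and high shear force bird 3 was the highest. Group means of 17.0 ± 5.95 CPM with high and 7.47 ± 1.20 CPM with low shear force (SD, n = 4 each) gave a log2 fold change of 1.18 ± 0.26 (SE). The edgeR unadjusted p was 0.00063, rank 46 of 10136 genes, and the adjusted p 0.137, while DESeq2 gave an adjusted p of 0.0092. In the authors' deposited table the difference was 1.15 on the log2 scale by edgeR with an FDR of 0.0169, and 0.75 by DESeq2 with an adjusted p of 0.00539. That table calls 1.13% of its genes by edgeR and 1.82% by DESeq2. Of the 6 genes it called IGFBP4 alone. DESeq2 as run here put the log2 fold change of IGFBP4 at 1.15, and why the deposited DESeq2 value is smaller was not tested. Without low shear force birds 1 and 3 the difference was 1.33 (edgeR adjusted p = 0.462). Leaving out high shear force bird 3 gave 0.91 and leaving out high shear force bird 2 gave 1.30, the ends of the range with 1 bird left out.

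IGFBP5, which in mammals binds to matrix and is made by differentiating muscle cells, had the largest difference of the 6 and also the largest spread. IGFBP5 levels were 9.10, 11.1, 9.91 and 16.6 CPM in high shear force birds 1 to 4, and 2.30, 7.72, 1.41 and 7.39 CPM in low shear force birds 1 to 4. The groups did not overlap, but the low shear force group fell into birds 2 and 4, close under the lowest high shear force bird, and birds 1 and 3, far below. Group means of 11.7 ± 3.36 CPM with high and 4.71 ± 3.31 CPM with low shear force (SD, n = 4 each) gave a log2 fold change of 1.34 ± 0.46 (SE; edgeR adjusted p = 0.313, DESeq2 adjusted p = 0.162). Without low shear force birds 1 and 3 it was 0.59, with an edgeR adjusted p of 0.683 and an unadjusted p of 0.0682. Leaving out low shear force bird 3 gave 0.99 and leaving out low shear force bird 2 gave 1.66, the ends of the range with 1 bird left out. The coefficient of variation in the low shear force group was 70.3%, where counting alone at the mean of 28.5 reads gives 18.7%. The within-group SD of log2 CPM was 0.84.

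IGFBP7 is a more distant relative that binds IGFs weakly and is known as a protein of vessel walls and stroma. For IGFBP7 the values were 116, 211, 224 and 213 CPM in high shear force birds 1 to 4, and 67.0, 123, 79.6 and 152 CPM in low shear force birds 1 to 4. The groups overlapped through high shear force bird 1, which lay below low shear force birds 2 and 4, while the other 3 high shear force birds were close together on top. Group means of 191 ± 50.6 CPM with high and 105 ± 39.2 CPM with low shear force (SD, n = 4 each) gave a log2 fold change of 0.86 ± 0.28 (SE; edgeR adjusted p = 0.291, DESeq2 adjusted p = 0.147). Without low shear force birds 1 and 3 it was 0.44, with an edgeR adjusted p of 0.721. Its 436 to 1787 reads per bird correspond to a coefficient of variation from counting of 2.70% in the high and 3.88% in the low shear force group, against 26.5% and 37.2% observed. The gene overlaps POLR2B by 56 bases at its end, so that reads there may be shared, and POLR2B itself stood at -0.088 ± 0.13 (SE) on the log2 scale. The counts of IGFBP7 are also not whole numbers, as estimated counts are where reads match more than 1 gene or transcript.

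**Figure D2:**
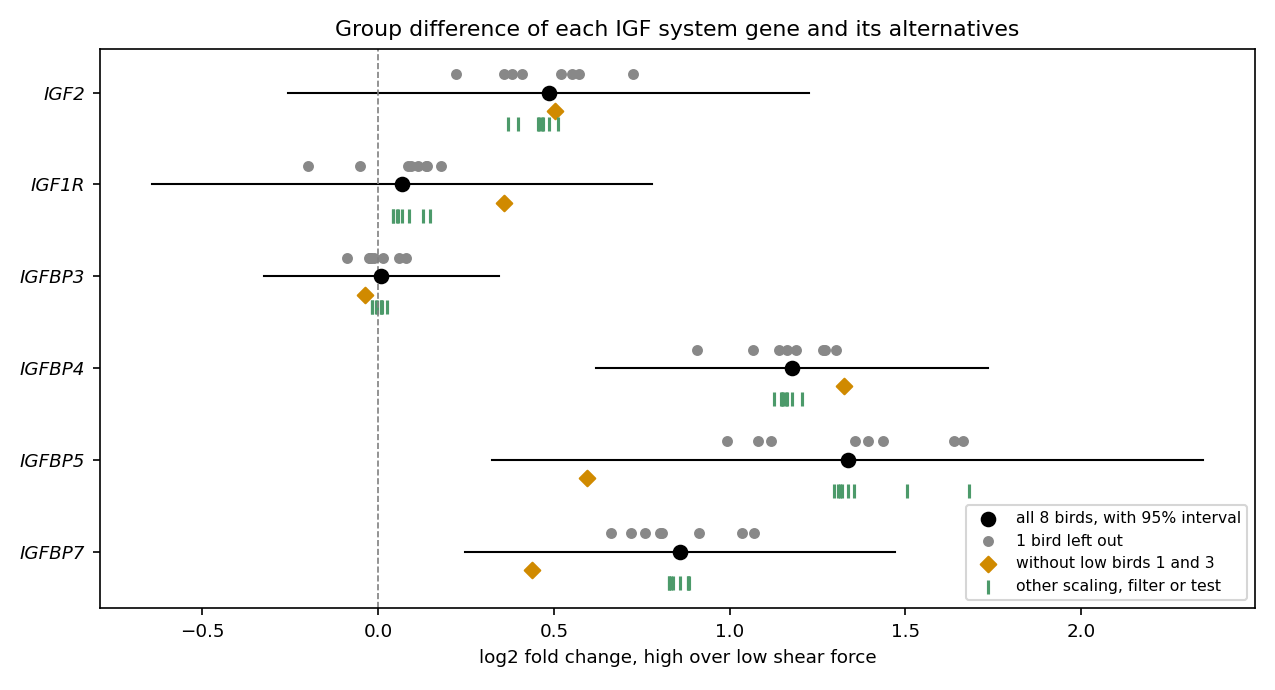
Log2 fold change of the high over the low shear force birds (horizontal axis) for each gene. Black points with lines are the edgeR values from all 8 birds with their 95% intervals, grey points leave out 1 bird each, diamonds leave out low shear force birds 1 and 3, and ticks are other scalings, filters and tests. The diamond lies near the black point for IGFBP4, at 1.33 against 1.18, and far to its left for IGFBP5, at 0.59 against 1.34, and IGFBP7, at 0.44 against 0.86.

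The levels of different genes were not set against each other, because no transcript lengths were used. The ratio of a gene's counts within a bird can be compared between groups, and no scaling of libraries changes it. All 15 pairs of the 6 genes were compared in this way by a 2-sided exact permutation test. With 70 ways to divide the birds its smallest possible p is 0.0286. Of these ratios 3 had groups that did not overlap. With 4 against 4 birds such a split always gives that smallest p, which therefore adds nothing to it. Each of the 3 holds IGFBP4 or IGFBP5, whose own levels already had no overlap between the groups. The ratios were chosen after the values were seen, and the share of ratios without overlap over all genes was not worked out. None passed after adjustment over the 15 pairs (adjusted p = 0.143 for each), and 9 of 15 ratios would have to stand at the smallest p for any to pass.

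The log2 ratio of IGFBP4 to IGFBP3 averaged -0.88 ± 0.62 with high and -2.01 ± 0.28 with low shear force (SD, n = 4 each), 1.12 apart (1.31 without low shear force birds 1 and 3). The log2 ratio of IGFBP5 to IGFBP3 was -1.40 ± 0.35 against -3.01 ± 1.26 (SD, n = 4 each), a difference of 1.61 that was 0.59 without low shear force birds 1 and 3. The third such ratio was IGF2 to IGFBP4, at -1.23 ± 0.54 with high and -0.45 ± 0.17 with low shear force (SD, n = 4 each). There was thus less IGF2 per IGFBP4 messenger in every high shear force bird than in any low shear force bird. The ratio of IGFBP7 to IGFBP3 overlapped between the groups, at 2.62 ± 0.53 against 1.75 ± 0.54 (SD, n = 4 each; exact permutation p = 0.0857). Its difference of 0.87 was 0.44 without low shear force birds 1 and 3. For IGF2 to IGF1R, ligand to receptor, the log2 ratio was 0.58 ± 0.61 against 0.401 ± 0.61 (SD, n = 4 each; exact permutation p = 0.714).

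**Figure D3:**
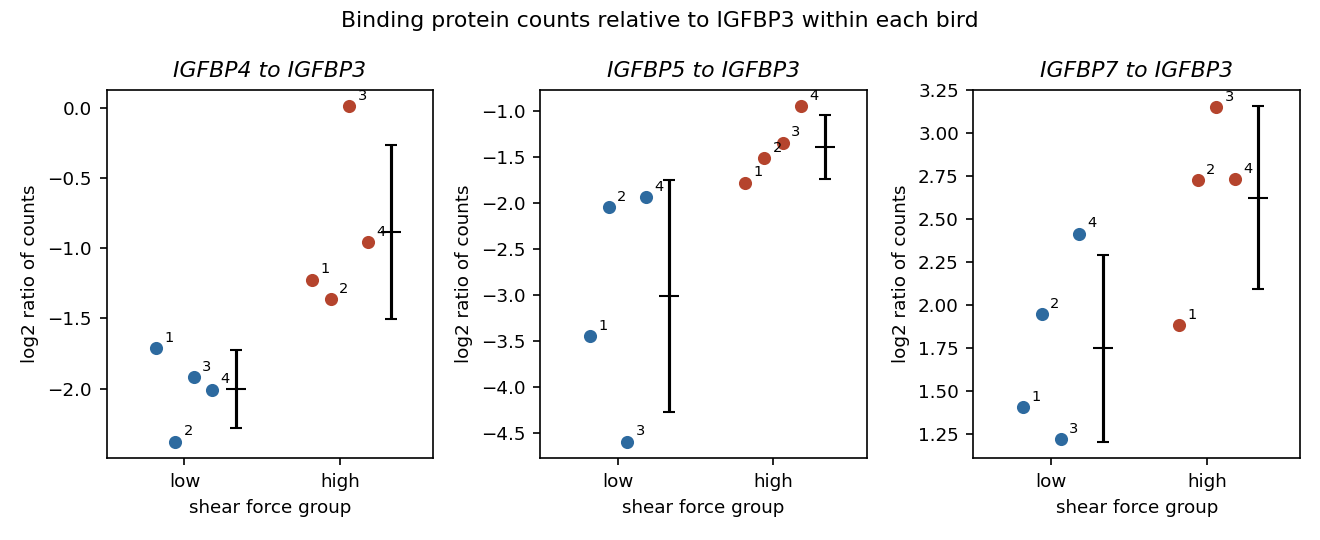
Log2 ratio of the counts of 3 binding proteins to those of IGFBP3 in the same bird (vertical axis), by shear force group. Points are birds with their number, and bars show the mean ± SD of 4 birds. IGFBP4 and IGFBP5 have no overlap between the groups, and IGFBP7 overlaps through high shear force bird 1.

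The 6 genes did not move as 1 block across the birds. Among 15 pairs the median Pearson's r of log2 CPM over 8 birds was 0.27, from -0.49 for IGF1R and IGFBP3 to 0.88 for IGFBP5 and IGFBP7, and 11 of the 15 were positive. None passed an exact permutation test adjusted over the 15 pairs. The pair IGFBP5 and IGFBP7 came closest, with r = 0.88 (exact permutation p = 0.00394, adjusted p = 0.0592) and Spearman's rho = 0.81 (exact permutation p = 0.0218, adjusted p = 0.324). Low shear force birds 1 and 3 were lowest for both genes, and without them r was 0.66. With the group means taken off, r was 0.75. For IGFBP4 and IGFBP5, the 2 genes whose groups do not overlap, r was 0.499 (exact permutation p = 0.212) and turned to -0.39 with the group means taken off. High shear force bird 3 was highest for IGFBP4 and bird 4 for IGFBP5.

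Each gene's log2 CPM over the 8 birds was also set against that of every other named gene whose mean log2 CPM was 1 or more, 7618 candidates in all, and the 2 with the highest Pearson's r were taken as the most alike. For IGFBP4 they were ZNF710 (Pearson's r = 0.97) and C1QTNF5 (r = 0.97), for IGFBP5 KDELR3 (r = 0.99) and ILK (r = 0.99), and for IGFBP7 SLC9A3R2 and PDLIM1 (r = 0.99 each). IGFBP3 was followed most closely by SCFD1 (r = 0.99) and PAXBP1 (r = 0.95), IGF2 by TKT and NOTCH2 (r = 0.96 each), and IGF1R by C3D (r = 0.99) and RBFOX2 (r = 0.97). The highest of 7618 values from 8 birds is high by selection, and these values are a description of the libraries.

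By the positions in the authors' deposited table, and with galGal4 as the build in the submitters' processing notes, IGFBP4 (ENSGALG00000028931) lies on chromosome 27 at 4442296 to 4446537. IGFBP5 (ENSGALG00000011468) lies on chromosome 7 at 22733555 to 22750389 and IGFBP7 (ENSGALG00000011339) on chromosome 4 at 48581286 to 48595158. IGFBP3 (ENSGALG00000012439) lies on chromosome 2 at 55011807 to 55031149, IGF2 (ENSGALG00000006555) on chromosome 5 at 13148583 to 13163279 and IGF1R (ENSGALG00000007039) on chromosome 10 at 16180774 to 16320955. The nearest genes of that table on either side of IGFBP4 are TOP2A and SMARCE1, at log2 fold changes of 0.28 ± 0.300 and 0.058 ± 0.16 (SE). Next to IGFBP5 lies RPL37A, a ribosomal protein gene, at 0.55 ± 0.22 (SE; edgeR adjusted p = 0.341). In the RefSeq annotation of assembly GRCg7b IGFBP2 stands between IGFBP5 and RPL37A, IGFBP1 stands beside IGFBP3, and INS, the insulin gene, stands beside IGF2.

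Around the IGF genes, a list of 71 genes of the pathway was described, of which 44 could be matched and were kept. Levels with high shear force were lower for 34 of 44, with a median log2 fold change of -0.17, where 49.2% of all genes were lower and their median was 0.0064. This lean rested on low shear force birds 1 and 3: without them 23 of 44 were lower, with a median of -0.00099, beside 48.7% of all genes. With RLE scaling 36 of 44 and with upper-quartile scaling 32 of 44 were lower. By the edgeR quasi-likelihood test 0 of 44 passed over all genes, and DESeq2 called 1, HTRA1, where it called 1.21% of genes in either direction. At an unadjusted p under 0.05 the count was 2 higher and 3 lower, beside 12.8% of all genes.

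HTRA1, a secreted protease known in mammals to cut IGFBP5 and other matrix proteins, had the smallest p of the list and stood higher with high shear force, as IGFBP4, IGFBP5 and IGFBP7 did. HTRA1 was found at 94.7, 107, 156 and 130 CPM in high shear force birds 1 to 4, and 61.0, 78.1, 47.1 and 58.3 CPM in low shear force birds 1 to 4. The groups did not overlap, as was the case for 2 of the 44 pathway genes and 6.18% of all genes (3.89% with the high shear force birds above). The log2 fold change was 0.998 ± 0.197 (SE; edgeR adjusted p = 0.107, DESeq2 adjusted p = 0.0022). Without low shear force birds 1 and 3 it was 0.80.

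IGF2R, the mannose-6-phosphate receptor, takes up and breaks down IGF2 in mammals, while the chicken receptor is known to bind IGF2 poorly. IGF2R was measured at 19.2, 16.4, 22.0 and 14.5 CPM in high shear force birds 1 to 4, and 44.7, 22.5, 36.6 and 17.1 CPM in low shear force birds 1 to 4. Low shear force birds 1 and 3 were the highest and the other birds overlapped, so that the log2 fold change of -0.75 ± 0.28 (SE; edgeR adjusted p = 0.340) was -0.17 without these 2 birds. Of the growth hormone axis, which in the liver drives IGF1, the receptor GHR stood at -0.25 ± 0.24 and its kinase JAK2 at -0.18 ± 0.31 (SE), and without the 2 birds both signs turned, to 0.017 for GHR and 0.35 for JAK2.

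Of 6 genes for the insulin receptor and for adaptors, 4 were lower. SHC1, an adaptor which leads to RAS, stood at 0.401 ± 0.22 and IRS4, a substrate that leads to PI3K, at -0.44 ± 0.26 (SE). Without low shear force birds 1 and 3 SHC1 was at 0.13 and IRS4 at -0.0092. In the PI3K-AKT group 7 of 9 were lower. PIK3CA, the catalytic subunit of PI3K, stood at -0.49 ± 0.27 (SE), and at -0.104 without low shear force birds 1 and 3.

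In the mTOR branch 7 of 10 were lower. MTOR, the kinase itself, stood at -0.55 ± 0.22 (SE; edgeR adjusted p = 0.340) and at -0.13 without these 2 birds. RPS6KB2, a ribosomal S6 kinase, had no overlap between the groups, as was the case for 6.18% of all genes (3.89% with the high shear force birds above). It stood at 23.4 ± 2.01 CPM against 17.9 ± 1.74 CPM (SD, n = 4 each), a log2 fold change of 0.39 ± 0.15 (SE; edgeR adjusted p = 0.340). By its deposited position RPS6KB2 lies at 21 to 1265 of a sequence not placed on a chromosome. Of FOXO and GSK3 genes, which AKT holds in check, all 3 measured were lower: FOXO3 stood at -0.51 ± 0.33 and GSK3B at -0.042 ± 0.15 (SE). GSK3B was at -0.067 with RLE and -0.025 with upper-quartile scaling, and no gene of this group turned its sign under either. With birds left out the signs of GSK3B and FOXO4 did turn: GSK3B was at 0.036 without high shear force bird 2 and at 0.0088 without low shear force bird 4. FOXO4, at -0.12 ± 0.46 (SE) over all birds, was at 0.097 when high shear force bird 1 was left out. It was at 0.026 and 0.13 when birds 1 and 3 of the other group were left out singly, and at 0.65 with both left out.

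In the RAS-MAPK route 5 of 6 were lower. MAP2K1, a kinase of this route, stood at -0.33 ± 0.14 (SE; edgeR adjusted p = 0.357) and stayed at -0.305 without low shear force birds 1 and 3. Of the proteins that bind IGF2 messenger RNA, IGF2BP3 stood at -0.41 ± 0.21 and IGF2BP1 at -0.031 ± 0.299 (SE). Of 3 genes for the turnover of receptors and adaptors, all lower, FBXO40, a muscle ubiquitin ligase subunit that targets IRS1 in the mouse, stood at -0.43 ± 0.24 and CBL at -0.61 ± 0.54 (SE), values of -0.0196 and 0.41 without the 2 birds.

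**Figure D4:**
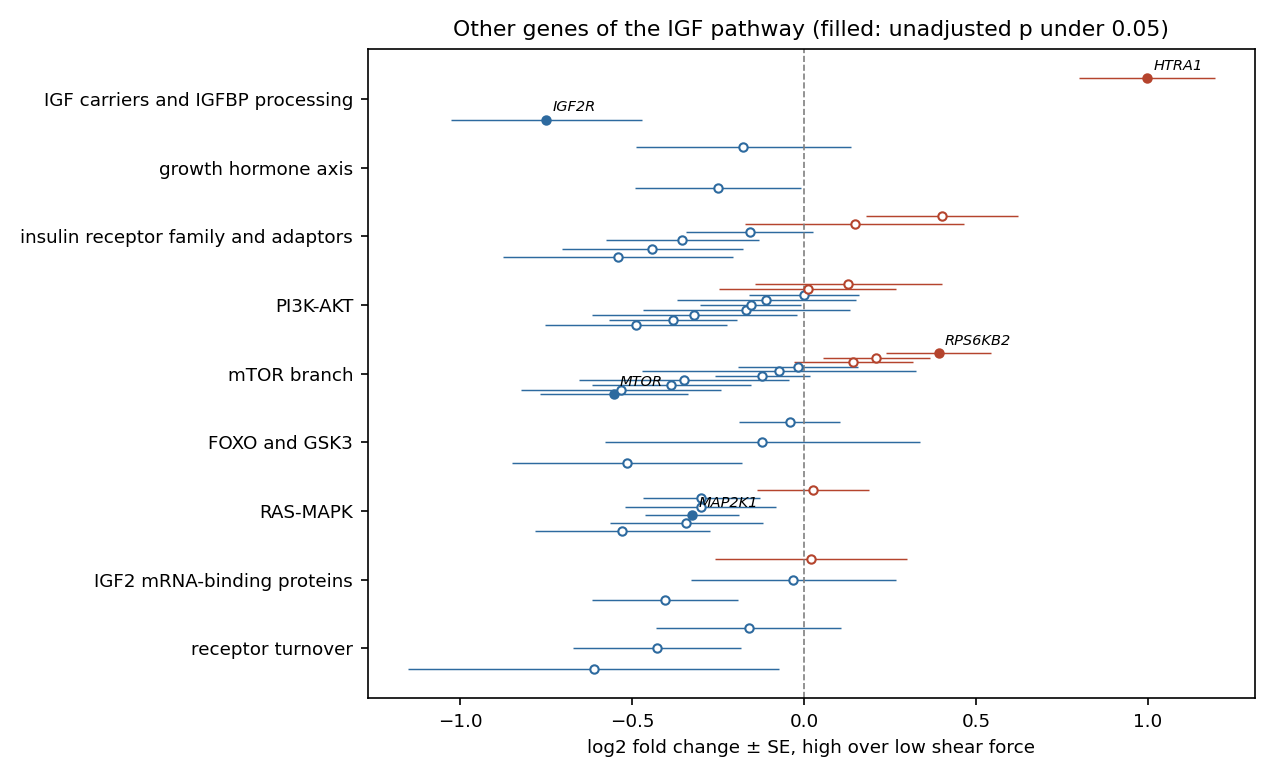
Log2 fold change ± SE of the high over the low shear force birds (horizontal axis) for 44 other genes of the IGF pathway, by group of genes. Red marks values above 0 and blue values below 0, and filled points have an unadjusted p under 0.05. HTRA1 lies farthest to the right, at 0.998, and 34 of 44 genes lie left of 0.

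Bulk muscle holds several cell types, and fewer cells of a type cannot be told apart from less RNA per cell. Markers of connective tissue cells differed in the same direction as IGFBP4, IGFBP5 and IGFBP7. All 8 listed fibroblast markers (such as COL1A2, COL6A1 and POSTN) were higher with high shear force, 6 of them at an unadjusted p under 0.05, a level that 7.92% of all genes tested reached as higher. Their summed level was 4935 to 6557 CPM in the high and 3387 to 4159.8 CPM in the low shear force birds, without overlap. Of single genes 6.18% had no overlap (3.89% with the high shear force birds above), and no such share was worked out for sums. High shear force bird 3, the highest for IGFBP4, was also highest in this sum. High shear force bird 4, the highest for IGFBP5, had a sum of 4973 CPM. Low shear force bird 1, the highest of its group in this sum, was the lowest of all birds for IGFBP7.

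Endothelial markers, measured for 7 of 8 listed, were all higher, 4 at an unadjusted p under 0.05, and summed to 158 to 327 CPM against 124 to 229 CPM. High shear force bird 1, the lowest of its group for IGFBP7, was also the lowest of its group in this sum. The same bird was the lowest of its group in the fibroblast sum (4935 CPM) and the leukocyte sum (661 CPM). Most of the leukocyte sum was CD74, with means of 1043 CPM with high and 755 CPM with low shear force. Of the other leukocyte markers CSF1R was higher and PTPRC, CD3E and LYN were lower. Low shear force bird 1, the lowest of all birds for IGFBP7, was also the lowest of all in the endothelial sum (124 CPM). Within each group the endothelial sum ranked the birds in the same order as IGFBP7. The leukocyte sum did so in the high shear force group only and the adipocyte sum in the low shear force group only. The fibroblast sum did so in neither group. These orders of 4 birds were compared after the values were seen, and they were not tested. Of 7 smooth muscle and pericyte markers 6 were higher, 5 at an unadjusted p under 0.05, but their sum, most of it DES, which muscle fibres share, overlapped at 1019 to 1349 against 1012 to 1262 CPM. No edgeR adjusted p of any marker was under 0.05.

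Of the other lists, 3 of 4 adipocyte markers measured were higher (sum 205 to 297 against 120 to 275 CPM), as were 2 of 5 leukocyte markers (661 to 1543 against 712 to 1156 CPM) and 3 of 3 satellite cell and myoblast markers (130.1 to 181 against 79.5 to 178 CPM). All 3 globin genes, which mark blood, were higher, and their sum did not overlap, at 157 to 610 against 56.1 to 92.7 CPM. Of the 2 nerve and Schwann cell markers measured, PMP22 was higher (log2 fold change 0.61) and NCAM1 lower (-0.21). Their sum did not overlap either (126 to 162 against 104 to 122 CPM), a difference that came from PMP22. For single genes the share without overlap was 6.18% (3.89% with the high shear force birds above), and none was worked out for sums. The single liver marker measured, APOA1, which chicken muscle also makes, stood at 688 to 1673 against 373 to 884 CPM. No measured marker was at 0 in any bird. The part of these cell types in the values of the binding proteins was not tested.

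**Figure D5:**
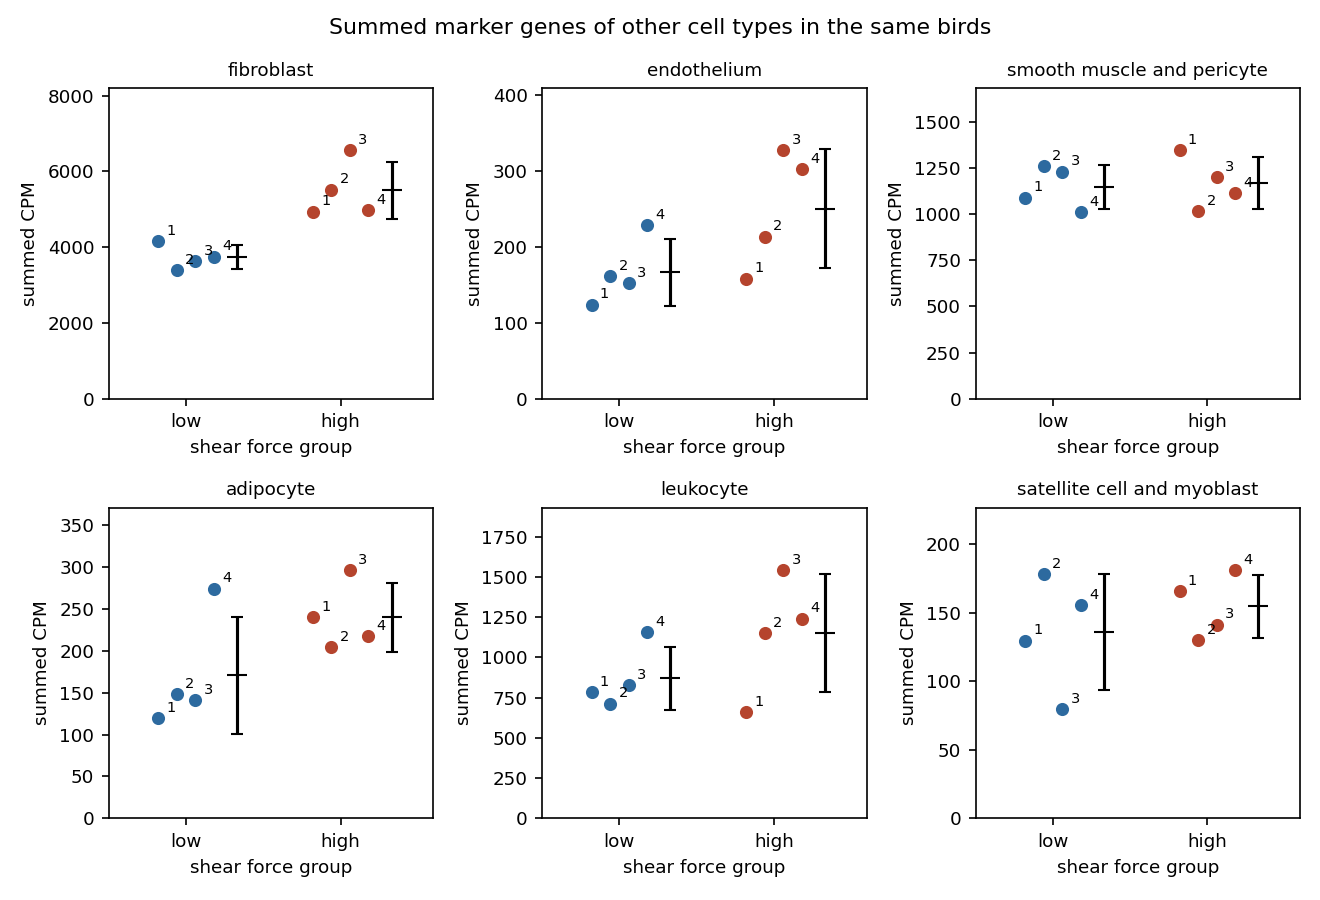
Summed CPM of the measured marker genes of 6 other cell types (vertical axis) in each bird, by shear force group. Points are birds with their number, and bars show the mean ± SD of 4 birds. The fibroblast sum has no overlap between the groups, from 4935 upward in the high shear force birds, and the other 5 sums drawn overlap. The globin and the nerve and Schwann cell sums, not drawn, have no overlap either.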

How the data were processed

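Per the labels' protocols, Trizol RNA from muscle in RNAlater went into Illumina TruSeq libraries. The series' text mentions technical repetitions of the sequencing; the way they were merged is not stated in the sources used here. The authors deposited expected counts per Ensembl gene and transcript, of which 8.22% of gene values were not whole. Per the submitters' processing notes the tools were RSEM, Bowtie2, TopHat, FastQC, Cuffdiff, DESeq2 and edgeR, on galGal4, with no roles or versions given. The authors' deposited tables also give log2 fold changes and p-values, per the file headers. Set against the counts, the sign of their edgeR values proved to be low over high (r = -1.00 over 8076 genes) and was turned. Their DESeq2 values were turned too without that check, and then had the edgeR sign for each IGF gene.

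Counts were rounded and genes kept by filterByExpr of edgeR 4.0.16 (99.8% of counts). Genes were then tested by edgeR's quasi-likelihood method with TMM scaling, robust shrinkage and the group alone, with Benjamini-Hochberg adjustment over all kept genes, in R 4.3.3. SEs and 95% intervals come from its F statistics. Log2 CPM used a prior count of 2. DESeq2 1.42.0 and limma 3.58.1 were alternatives, with other scalings, filters, birds left out and the replicate number as a block. The procedure was also run on simulated data, and the results of that run are not given here. Coefficients of variation from counting cover counting error only.

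All 6 measured genes are named. In each block of the pathway list the 2 genes with the smallest p are named, except 2 genes not reported here, and neighbours were taken by position. Members and lists were chosen with earlier results of these data known. The ratios between genes, the counts at an unadjusted p and the orders of birds by marker sums were chosen after the values were seen. Symbols come from the authors' deposited table alone, and IDs without one could be in no list. The transcript table was not independent: each of the 6 genes had 1 named transcript with the same counts as the gene.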

Additional observations from a re-analysis of the deposited data

Results flagged for a closer look

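Of 48 groups of 4 birds, those of the 6 IGF genes and 18 pathway genes, 3 held a bird whose gap to its nearest neighbour took up more of the group's range than Dixon's 95% limit for 4 samples. Chance flags about 1 group in 20. High shear force bird 3 had 25.2 CPM of IGFBP3, below the other 3 birds of its group. High shear force bird 1 had 116 CPM of IGFBP7, below the other 3 birds of its group, and without it the log2 fold change was 1.04 (edgeR adjusted p = 0.154). High shear force bird 4 had 8.79 CPM of IRS4, below the other 3 birds of its group.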

How the results depend on the processing

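Directions of IGF2, IGFBP4, IGFBP5 and IGFBP7 held under all 17 alternatives run. The sign of IGFBP3 turned with RLE scaling (-0.018), no filter (-0.0026), a filter of 1 CPM in 4 birds (-0.0071), DESeq2 (-0.019) and without low shear force birds 1 and 3 (-0.036), and with 1 bird left out it ran from -0.088 to 0.078; for IGF1R that range was -0.20 to 0.18. Genes called over the whole table were 0 by edgeR (1301 at an unadjusted p under 0.05), 7 with no filter, 5 at an adjusted p of 0.1, 123 by DESeq2, 0 by limma-voom and 0 to 7 with 1 bird left out. DESeq2 called 1 of the 6 IGF genes (IGFBP4), 1 pathway gene (HTRA1) and 1 IGF transcript, where edgeR called 0. At an unadjusted p under 0.05 there were 3 to 4 IGF genes with 1 bird left out and 1 without low shear force birds 1 and 3. Over all genes the count at that level ran from 799 of 10307 to 1917 of 10308 with 1 bird left out. Without low shear force birds 1 and 3 it was 787 of 10478. The cause of these changes was not tested. Same-numbered birds did not deviate together in every pair (correlations 0.014, -0.0032, 0.21 and 0.32), and 3 of 8 birds correlated best with their own number. With the replicate number as a block edgeR called 1 gene in all and 0 of the 6, with an adjusted p of 0.0752 for IGFBP4, 0.127 for IGFBP5 and 0.0983 for IGFBP7. Depth limits IGF1R, at 11 to 46 reads per bird, and IGFBP5, with as few as 11.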
